A study of Mus musculus with 79 samples.

Results

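The pyruvate dehydrogenase complex and the enzymes that switch it on and off were followed in mouse muscle through 10 genes: the kinases Pdk1, Pdk2, Pdk3 and Pdk4, the subunit genes Pdha1, Pdhb, Dlat and Dld, the phosphatase gene Pdp1 and its regulatory subunit Pdpr. They were taken by symbol from a list with no cut on a measured value, though the list was chosen with earlier results of these data known. All 10 were present among the 14253 genes of the RORA tables and among the 12952 genes of the PER2 tables. RNA was sequenced from muscle at zeitgeber time (ZT, hours after lights on) 0, 4, 8, 12, 16 and 20 in mice with a muscle-specific knockout (MKO) of Rora or of Per2 and in control mice (CTRL), whose genotype the labels give as WT. The RORA set had 18 MKO and 18 CTRL libraries, 3 of each at every ZT. The PER2 set had 24 MKO libraries, 4 at every ZT, and 19 CTRL libraries, 3 at each ZT except for 4 at ZT20. The 2 sets had separate CTRL libraries, and the design text gives each library as a separate mouse. The labels used here name neither the muscle, nor the Cre driver, the age or the sex of the mice.

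Pyruvate dehydrogenase sits in the mitochondrial matrix and turns pyruvate from glycolysis into acetyl-CoA, which commits carbohydrate carbon to oxidation. The kinases phosphorylate the E1 alpha subunit and switch the complex off, and the phosphatase removes the phosphate and switches it on again. In muscle the kinase Pdk4 is known for its induction by fasting and fatty acids, which spares glucose.

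The deposited tables hold comparisons of MKO with CTRL at each ZT, not values per library, so the values below are log2 fold changes with an error. RORA log2 fold changes are MKO over CTRL and have been shrunk, which draws noisy values toward 0. PER2 tables do not say which genotype is over which, so PER2 values are given only as positive or negative. A gene was called at a ZT when the adjusted p in the authors' deposited table was under 0.05. The targeted gene Rora fell at all 6 ZT in the RORA tables, by a mean of 1.78 on the log2 scale. In the PER2 tables Per2 itself had a positive mean log2 fold change of 0.37 and was called at 1 ZT. That value was not used to set the direction. The 8 skeletal muscle markers, among them Acta1, Ckm and Myh4, were all detected, and their median log2 fold change lay between -0.13 and 0.01 at every ZT of both sets. Single markers went both ways, from -0.20 to 0.43 in the RORA set, where 3 or 4 of the 8 were called at each ZT, and from -0.57 (Mylpf, ZT4) to 0.34 (Myh4, ZT4) in the PER2 set, where 1 was called at ZT4 and 0 at the other ZT.

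Levels were compared between genes per kb of transcript, as means pooled by the authors over all libraries of a set. In the RORA tables Pdha1, which encodes the E1 alpha subunit, was the most abundant at 3170 normalized counts per kb. Pdk2 followed at 1991, Pdhb at 1648, Pdk4 at 1371 and Dld at 1306. Dlat stood at 565, Pdpr at 380, Pdp1 at 295 and Pdk1 at 171 normalized counts per kb. Pdk3 was close to the floor, with a mean normalized count of 9.18 and 4.34 per kb. In the PER2 tables the order was the same except that Pdk4 came before Pdhb, with Pdha1 at 206 CPM per kb, Pdk2 at 172, Pdk4 at 141 and Pdhb at 120. Pdk2 and Pdk4 together thus carried most kinase transcript: of the summed kinase level per kb, Pdk2 made up 56.3% in the RORA and 52.6% in the PER2 tables, Pdk4 38.8% and 43.3%, Pdk1 4.84% and 3.88%, and Pdk3 0.123% in each. These levels pool genotypes and ZT, so they show no daily course, and no spread between libraries can be given.

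**Figure D1:**
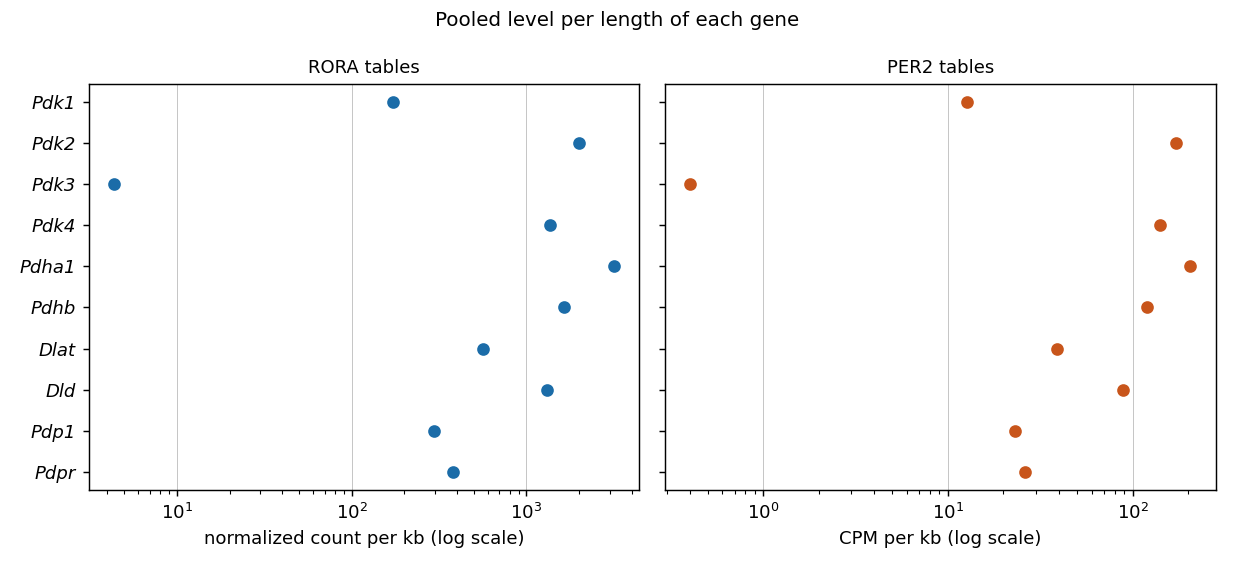
Pooled level of each gene per kb of transcript, as mean normalized count (RORA tables, left) and as CPM (PER2 tables, right), both on a log axis with 1 point per gene. Pdha1 is highest in both sets, at 3170 normalized counts and 206 CPM per kb, and Pdk3 is lowest.

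The bases just before the start of Pdk2 and Pdk4 are shown because these were the most abundant kinases and differed in the course of their log2 fold change over ZT. They are from RefSeq (GRCm38.p6), 5′ to 3′ on the strand of the gene, in lower case with the E-box CACGTG in capitals. Both genes lie on the minus strand, Pdk2 at chr11:95041372-95041621 and Pdk4 at chr6:5496310-5496528. The Pdk2 stretch belongs to the more upstream of the gene's starts in the table, and 31 bases next to the Pdk4 start that an annotated transcript covers were left out.
Pdk2: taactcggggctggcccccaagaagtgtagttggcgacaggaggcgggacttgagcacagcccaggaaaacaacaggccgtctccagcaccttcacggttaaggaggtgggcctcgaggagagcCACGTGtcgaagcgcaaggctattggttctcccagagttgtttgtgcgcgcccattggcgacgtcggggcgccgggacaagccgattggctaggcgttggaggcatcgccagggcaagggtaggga
Pdk4: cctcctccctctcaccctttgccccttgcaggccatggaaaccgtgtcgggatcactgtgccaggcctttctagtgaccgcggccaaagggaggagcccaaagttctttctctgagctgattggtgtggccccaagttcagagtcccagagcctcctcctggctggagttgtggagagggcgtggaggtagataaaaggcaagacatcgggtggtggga
The Pdk2 E-box begins 126 bases before the start. The letters of 4 motifs were searched on both strands in the full 250 bases before each start, the bases not printed included, for the 9 of 10 genes in the table (Pdp1 was missing). The E-box CACGTG, a motif that clock factors bind, was found for Pdk2 and Pdpr and in 6.02% of all 32851 windows. The nuclear receptor half-site AGGTCA, found in 14.0% of windows, the forkhead motif GTAAACA, in 3.17%, and the D-box TTATGTAA, in 0.819%, were found for none of the 9 genes. A match is only a description of the letters in this window.

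In the RORA knockout most of the genes were modestly raised. At ZT0, 7 of the 10 genes rose and 0 fell, where 28.1% of all genes were called in either direction. At ZT4, 6 rose and 0 fell (29.0% of all genes called). At ZT8 and ZT12, 7 rose and 1 fell at each (27.8% and 22.1%), at ZT16 6 rose and 0 fell (20.7%), and at ZT20 3 rose and 1 fell (32.2%). On the mean over the 6 ZT, 8 genes rose, where 18.9% of all genes did, and 1 fell, where 19.3% of all genes did. The gene that fell was Pdp1, and Pdk3 was not called. Pdk2 and Pdhb rose at every ZT, which 3.95% of all genes did. The median of the 10 mean log2 fold changes was 0.12, against 0.00 over all genes.

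The PER2 tables held few calls among the same genes. Pdk4 was called at ZT0, where 2.70% of all genes were, and 0 of the 10 genes were called at ZT4 (12.2% of all genes), ZT8 (1.78%), ZT12 (3.34%), ZT16 (0.811%) or ZT20 (1.52%). At an unadjusted p under 0.05 there were 9 of 60 values: Pdk1 at ZT0, Pdk2 at ZT0, ZT4 and ZT12, Pdk4 at ZT0, ZT4 and ZT8, Pdha1 at ZT0 and Pdhb at ZT4. These are 15% of the values, near the 14.2% over all PER2 genes and ZT. On the mean over ZT, Pdk2 was called negative, where 10.6% of all genes were, and 0 were called positive, where 10.9% were. The median of the 10 mean log2 fold changes was -0.07, against -0.02 over all genes.

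Pdk4 had the widest course of the 10 genes in both sets. In the authors' deposited RORA tables its log2 fold change was 0.03 ± 0.12 (error) at ZT0, 1.22 ± 0.25 at ZT4 and 1.58 ± 0.25 at ZT8. It was 0.86 ± 0.27 at ZT12, -0.11 ± 0.16 at ZT16 and 0.12 ± 0.15 at ZT20. Pdk4 thus rose at ZT4, ZT8 and ZT12 only, by 2.33-fold, 2.98-fold and 1.82-fold, with deposited adjusted p of 1.59e-07, 3.05e-11 and 1.19e-04. At the other ZT it was not called, with adjusted p of 0.795, 0.242 and 0.268. The 6 effects differed beyond their errors (Cochran's Q, adjusted p = 1.23e-08), a result that 11.0% of all genes reached and in which Pdk4 ranked 44 of 14253. Its plain mean over ZT was 0.62 ± 0.70 (SD over 6 ZT). The weighted mean was 0.29 (95% interval 0.15 to 0.42, adjusted p = 1.42e-04), lower because the ZT with small effects had small errors, and limma on the 6 values gave an adjusted p of 0.0822. By the median over the 6 ZT, shrinkage bore more on Pdk4 than on the other genes but Pdk3. The ratio of log2 fold change to error was 0.636 of the z that its p implies, so sizes may be understated. That median includes the ZT at which Pdk4 was not called, and it does not give the shrinkage at ZT4, ZT8 and ZT12. The median over all genes was 0.814, but it left out values with a small z and is not a like measure.

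In the PER2 tables Pdk4 had values of both signs. The authors' deposited log2 fold change was 1.66 ± 0.42 at ZT0, -1.13 ± 0.43 at ZT4 and -1.17 ± 0.43 at ZT8, with the error derived from the test score. It was -0.36 ± 0.42 at ZT12, -0.05 ± 0.42 at ZT16 and -0.67 ± 0.39 at ZT20. The ZT0 value alone was positive and alone was called (deposited adjusted p = 0.0061). The values at ZT4 and ZT8 had adjusted p of 0.0617 and 0.175. These 6 effects also differed beyond their errors (Cochran's Q, adjusted p = 0.0272), and Pdk4 was 1 of 6 genes, or 0.0463% of all genes, for which this was so in the PER2 set. The others, not chosen by the naming rule, were Nr1d1, Adra1a, Slc37a1, Capn11 and Ccs. That call rested on single ZT: without ZT0 the adjusted p was 0.855, without ZT4 0.0757 and without ZT8 0.0548. The mean over ZT of -0.29 ± 1.05 (SD over 6 ZT) was not called (adjusted p = 0.242), but without ZT0 it was -0.68 with an adjusted p of 0.00337.

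Side by side, the RORA and PER2 values of Pdk4 had opposite signs at 4 of 6 ZT, and Pearson's r between them was -0.68 over the 6 ZT, given as a description. With the PER2 group order not stated, opposite signs cannot be read as opposite responses. ZT4 and ZT8 had large Pdk4 values in both sets, though those in the PER2 set were not called. ZT16 had the smallest size in the PER2 set and a small one in the RORA set. At ZT0 the PER2 value was the largest, 1.66, and the RORA value the smallest in size, 0.03. ZT12 had 0.86 in the RORA set and -0.36 in the PER2 set.

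Pdk2, the most abundant kinase, showed a small and steady rise in the RORA knockout. Its log2 fold change in the authors' deposited RORA tables was 0.32, 0.16, 0.28, 0.32, 0.33 and 0.33 from ZT0 to ZT20, each with an error of 0.03. It was called at all 6 ZT, and its mean of 0.29 ± 0.06 (SD over 6 ZT) corresponded to 1.22-fold (weighted mean 0.29, 95% interval 0.27 to 0.32, adjusted p = 1.01e-110). ZT4 was the low point, and the change with ZT (adjusted p = 0.0197) was not called without that ZT (adjusted p = 1.00). In the authors' deposited PER2 tables Pdk2 stood at -0.18, -0.18, -0.11, -0.23, -0.07 and -0.06 in the same order of ZT, with errors of 0.07 to 0.08. All 6 PER2 values were negative, none was called singly, and the mean of -0.14 ± 0.07 (SD over 6 ZT) was called by Stouffer's sum (adjusted p = 2.32e-04). That call was lost with limma on the 6 values (adjusted p = 0.0671) and after removal of the trend with transcript length and GC content (mean -0.06, adjusted p = 0.197). The trend was widest in the PER2 tables at ZT4 and ZT12, where it held 18.9% and 15.0% of the variance between genes.

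Pdk1, a kinase known as a target of hypoxia signalling, rose in the RORA knockout at 4 of 6 ZT. The authors' deposited RORA values were 0.17 at ZT0, 0.15 at ZT8, 0.13 at ZT12 and 0.15 at ZT16, and the values not called were 0.08 at ZT4 and 0.01 at ZT20. The mean of 0.12 ± 0.06 (SD over 6 ZT) had an adjusted p of 4.30e-11. Pdk1 ranged in the authors' deposited PER2 tables from -0.21 at ZT0 to 0.08 at ZT4 and its mean of -0.07 was not called (adjusted p = 0.209). Pdk3, the scarce kinase, ranged from -0.01 to 0.10 in the deposited RORA tables and from -0.38 to 0.30 in the deposited PER2 tables, with errors of 0.12 to 0.23. Its mean level was 9.18 normalized counts or 0.849 CPM, and its error was larger than its value at 6 of 6 ZT in the RORA set and at 3 of 6 in the PER2 set.

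**Figure D2:**
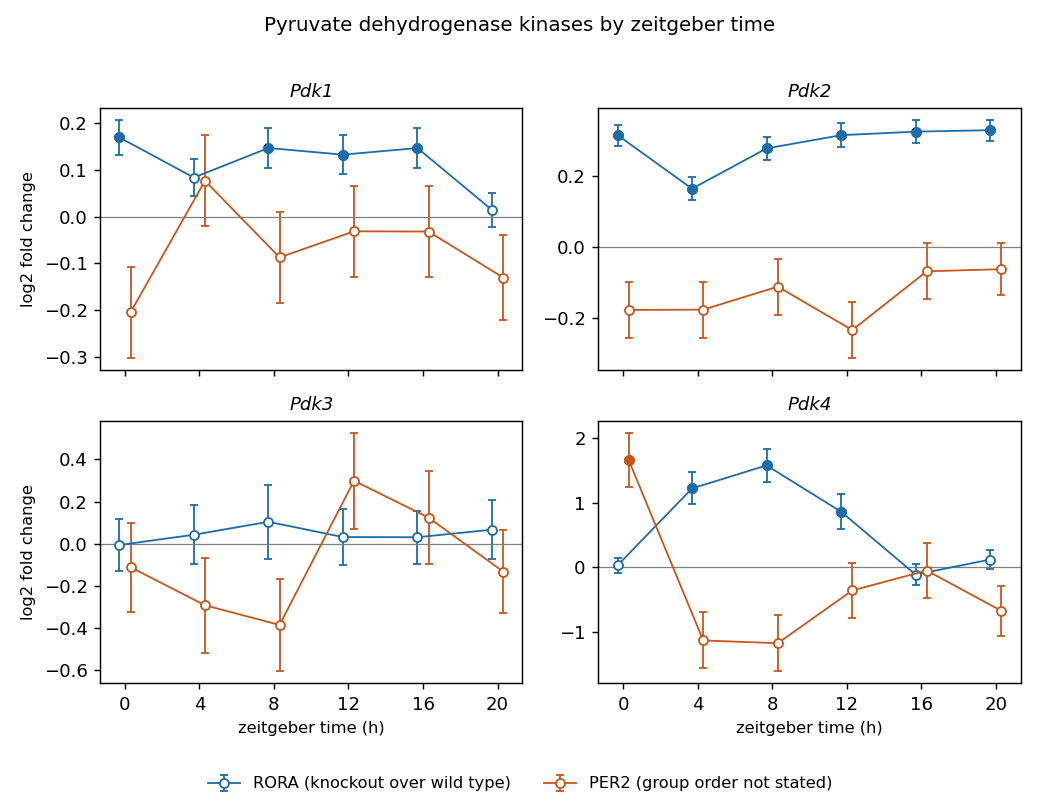
Log2 fold change of the 4 kinases against ZT in hours, in the RORA (blue) and PER2 (orange) tables, with bars of 1 error and filled points where the deposited adjusted p was under 0.05; each panel has its own vertical scale. Pdk4 reaches 1.58 at ZT8 in the RORA set and 1.66 at ZT0 in the PER2 set, while Pdk2 stays between 0.16 and 0.33 in the RORA set.

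The 4 subunits of the complex rose together in the RORA knockout, by small amounts. All 24 deposited values were positive, from 0.01 to 0.29, and 21 of them were called. Over all RORA genes and ZT, 51% of values were positive and 13.5% were called up. Pdha1, the E1 alpha subunit that the kinases phosphorylate, stood in the authors' deposited RORA tables at 0.17, 0.07, 0.24, 0.13, 0.09 and 0.01 from ZT0 to ZT20. It was called at every ZT but ZT20, with a mean of 0.12 ± 0.08 (SD over 6 ZT). The adjusted p was 1.60e-30 for the weighted mean and 0.0259 with limma on the 6 values, which uses the spread over ZT. The effect on Pdha1 changed with ZT (Cochran's Q, adjusted p = 1.58e-08). Pdhb, the E1 beta subunit, was at 0.16, 0.16, 0.21, 0.17, 0.12 and 0.10 in the same order and was called at all 6 ZT. Its mean was 0.15 ± 0.04 (adjusted p = 1.98e-69), and its change with ZT passed narrowly (adjusted p = 0.0417).

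Dlat, the E2 subunit that carries the lipoyl arm, had the largest mean of the subunits. Its deposited RORA values in the authors' table were 0.25, 0.06, 0.29, 0.14, 0.18 and 0.14 from ZT0 to ZT20, with only ZT4 not called. The mean was 0.18 ± 0.08 (adjusted p = 1.58e-42) and the effect changed with ZT (adjusted p = 1.21e-04). Dld, the E3 subunit that also serves the other 2-oxoacid dehydrogenases, was at 0.14, 0.16, 0.21, 0.12, 0.10 and 0.05 in the authors' deposited tables, with only ZT20 not called. Its mean was 0.13 ± 0.05 (adjusted p = 4.76e-18), and a change with ZT was not called (adjusted p = 0.178). Each of the 4 subunits had its highest value at ZT8, and 3 of them, all but Dlat, had their lowest at ZT20.

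Markers of slow or oxidative fibres moved in the RORA set at ZT0 too. Their median log2 fold change was 0.62 at ZT0, where 8 of 8 were called, and -0.25 at ZT4, where 5 of 8 were. It was 0.15 at ZT8 and within -0.12 to 0.03 at the later ZT. The most abundant of them, Myh2 and Myh7, stood at 0.42 and 0.97 at ZT0 and at -0.21 and -0.28 at ZT4. At ZT12 and at ZT16 0 of the 8 were called. White adipocyte markers had a median of -0.73 at ZT0, -0.25 at ZT4 and 0.44 at ZT20. Schwann cell markers had a median of -0.24 at ZT0 and -0.31 at ZT4, where 4 of 5 were called at each, and 0.90 at ZT20. The 2 brown adipocyte markers measured, Ucp1 and Cidea, had a median of 2.35 at ZT0, where both were called. Their levels were low, at 3.25 and 4.09 mean normalized counts. Endothelial markers had a median of 0.28 at ZT8, where 6 of 7 were called, 0.16 at ZT12 and 0.23 at ZT20, where 5 of 7 were called at each. Red blood cell markers had a median of 0.39 at ZT8, where 4 of 4 measured were called, the ZT at which Pdk4 and all 4 subunits were highest. Their median was 0.27 at ZT4 and at ZT20, and 4 of 4 were also called at ZT20, where Pdk4 was not called. The part of fibre type or of other cells in the values of Pdk4, Pdk2 and the subunits was not tested at any ZT. In whole muscle, fewer cells of a type and less RNA per cell cannot be told apart.

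In the PER2 tables none of the subunits was called at a ZT or on the mean. The authors' deposited values ranged from -0.10 to 0.21 for Pdha1, from -0.21 to 0.13 for Pdhb, from -0.11 to 0.06 for Dlat and from -0.18 to 0.07 for Dld, with errors of 0.07 to 0.11. The highest value of each was at ZT0, the ZT at which Pdk4 was positive. The mean log2 fold changes were 0.05 for Pdha1 (95% interval -0.02 to 0.12), -0.06 for Pdhb (-0.13 to 0.02), -0.06 for Dlat (-0.12 to -0.01) and -0.03 for Dld (-0.12 to 0.06). Errors of the same genes at single ZT were 0.02 to 0.04 in the RORA set. After removal of the length and GC trend, Dlat was called at -0.13 (adjusted p = 2.17e-04) and Pdk1 at -0.15 (adjusted p = 0.00156). The median of the red blood cell markers in the PER2 tables was -1.35 (ZT4) and -1.01 (ZT12), and their part in the values at these ZT was not tested.

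Of the phosphatase genes, Pdp1 fell at 3 ZT and Pdpr rose at 2 in the RORA knockout. Pdp1, the catalytic subunit that reactivates the complex, stood in the authors' deposited RORA tables at 0.04 ± 0.05 at ZT0, 0.01 ± 0.06 at ZT4 and -0.34 ± 0.07 at ZT8. It was at -0.14 ± 0.06 at ZT12, 0.04 ± 0.06 at ZT16 and -0.13 ± 0.06 at ZT20. Pdp1 fell at ZT8, to 0.792 of the CTRL level (deposited adjusted p = 5.96e-07), and by less at ZT12 and ZT20 (adjusted p = 0.0309 and 0.0433). ZT8 was also the ZT at which Pdk4 and all 4 subunits were highest. The change with ZT was called (adjusted p = 0.00149), but not without ZT8 (adjusted p = 0.267). Its mean of -0.09 ± 0.15 (SD over 6 ZT) was called (adjusted p = 0.0169), but not without ZT8 (adjusted p = 0.476), ZT12 (0.091) or ZT20 (0.11), nor with limma on the 6 values (0.241).

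Pdpr, the regulatory subunit of the phosphatase, rose at ZT0 and ZT4 only. The authors' deposited RORA values were 0.23 at both ZT, then 0.05, 0.05, 0.10 and 0.02, with errors of 0.05 to 0.06. The mean was 0.11 ± 0.09 (SD over 6 ZT; adjusted p = 1.91e-06), and the change with ZT passed narrowly (adjusted p = 0.0449). Pdp1 ranged in the authors' deposited PER2 tables from -0.20 to 0.01 and Pdpr from -0.13 to 0.37, with errors of 0.13 to 0.19. Neither was called at a ZT or on the mean (adjusted p = 0.152 and 0.275).

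**Figure D3:**
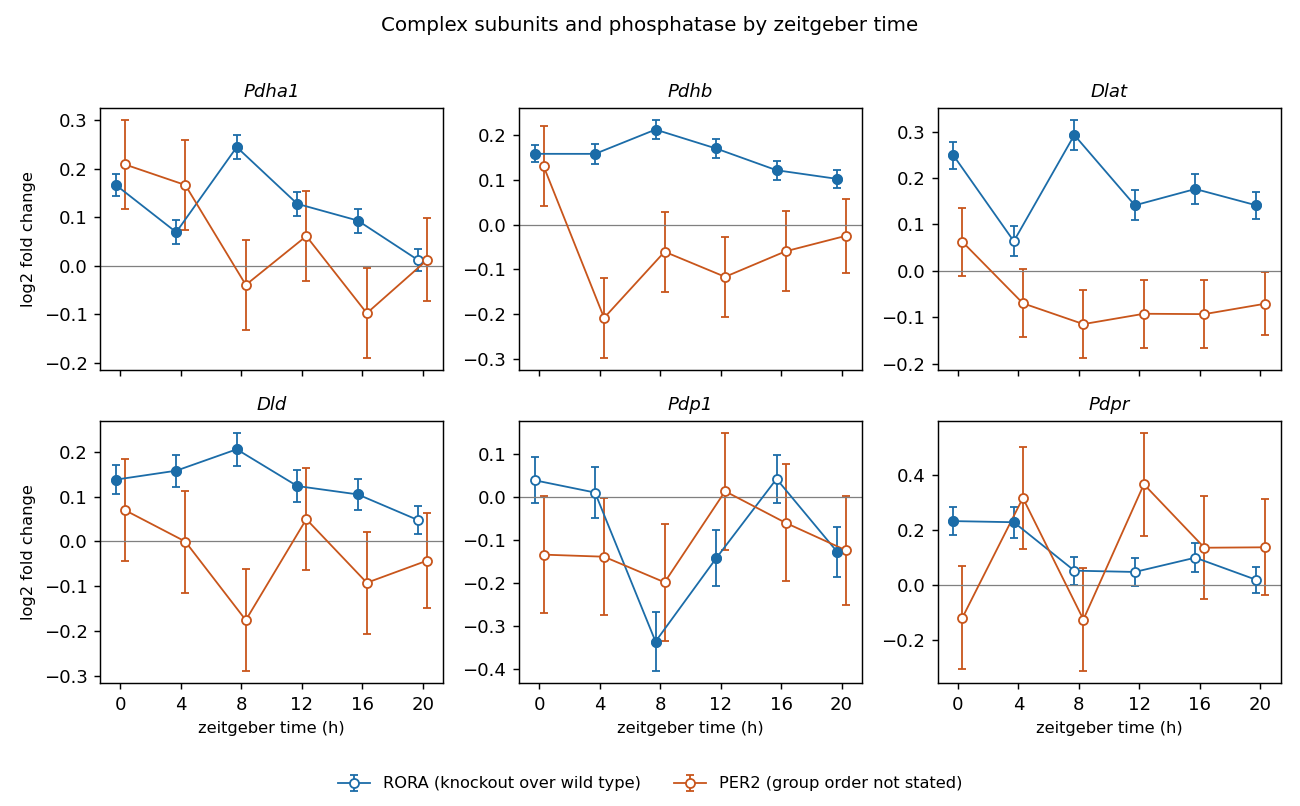
Log2 fold change of the 4 subunit genes, Pdp1 and Pdpr against ZT in hours, in the RORA (blue) and PER2 (orange) tables, with bars of 1 error and filled points where the deposited adjusted p was under 0.05; each panel has its own vertical scale. The subunits lie above 0 at every ZT in the RORA set, and Pdp1 falls to -0.34 at ZT8.

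Of the 10 genes, 7 had a RORA effect that changed with ZT (Pdk2, Pdk4, Pdha1, Pdhb, Dlat, Pdp1 and Pdpr), where 11.0% of all genes did. The range of log2 fold change over the 6 ZT was 1.69 for Pdk4, 0.38 for Pdp1 and 0.11 to 0.23 for the other 8. By that range Pdk4 ranked 7 and Pdp1 ranked 893 of 9306 RORA genes with a mean of at least 50 counts. In the PER2 set Pdk4 had a range of 2.83 and ranked 19 of 12318 genes with a mean of at least 1 CPM. For Pdk2, Pdha1, Pdhb, Dlat and Pdpr all 6 values were positive, so what changed with ZT was the size and not the sign.

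**Figure D4:**
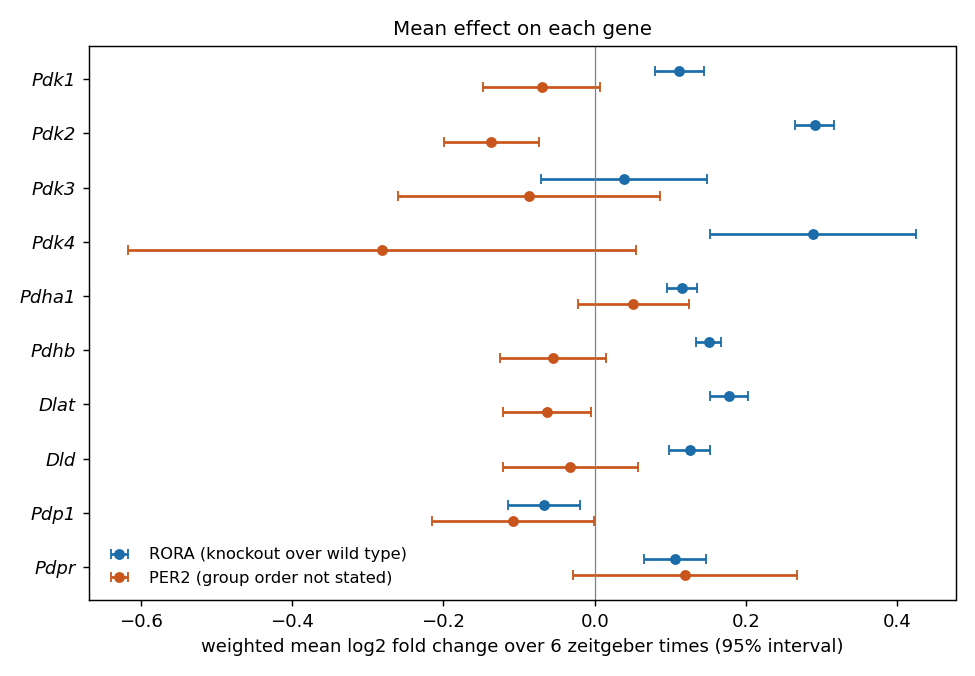
Weighted mean log2 fold change over the 6 ZT with its 95% interval for each gene, in the RORA (blue) and PER2 (orange) tables. In the RORA set 8 intervals lie above 0 and that of Pdp1 lies below it, and Pdk4 has the widest PER2 interval, from -0.62 to 0.05.

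The remaining parts of the complex and its relatives were read from lists of pathway genes. Their counts on the mean over ZT are to be set against all genes, of which 18.9% rose and 19.3% fell in the RORA knockout, and 10.9% were called positive and 10.6% negative in the PER2 set, with medians of 0.00 and -0.02. Pdhx, the E3-binding subunit, rose in the RORA knockout at all 6 ZT with a mean of 0.19, and Pdp2, the other phosphatase, was not called there (mean -0.05). Both were called negative on the mean in the PER2 tables, at -0.09 and -0.27. Of 8 genes of related 2-oxoacid dehydrogenases, 4 rose (Ogdh, Dlst, Bckdha and Bckdk) and 2 fell in the RORA knockout, and 2 were called negative in the PER2 set (Dlst and Bckdk), with list medians of 0.03 and -0.13. Bckdk, the kinase of the branched-chain complex, stood at 0.21 in the RORA and -0.14 in the PER2 set. Dbt, its E2 subunit, fell in the RORA knockout by 0.08. Of 9 genes listed for lipoic acid, 6 rose and 0 fell in the RORA knockout. Among those that rose were Iba57 at 0.28, Glrx5 at 0.16, Lias at 0.08 and Bola3 at 0.07. The list reaches beyond the synthesis and attachment of lipoic acid itself, and Lipt1 and Lipt2 were not called. In the PER2 set 0 of these 9 were called on the mean, and the list medians were 0.08 and -0.08.

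Of 12 genes of pyruvate and lactate handling, 5 rose and 4 fell in the RORA knockout, where 18.9% and 19.3% of all genes did, with a list median of 0.00. Mpc2, a subunit of the mitochondrial pyruvate carrier, rose by 0.14, and its partner Mpc1 was not called (-0.01). Gpt2, which interconverts pyruvate and alanine in mitochondria, rose by 0.64, and Ldhd, the D-lactate dehydrogenase, by 0.28. Cs, the citrate synthase that takes up the acetyl-CoA, rose by 0.20. Pcx, pyruvate carboxylase, which serves another mitochondrial fate of pyruvate, fell by 0.56, and Slc16a3, a lactate exporter, fell by 0.44. In the PER2 set 2 of the 12 were called positive, Pcx at 0.42 and Slc16a3 at 0.22, and 2 negative, Gpt2 at -0.19 and Ldhd at -0.15. Those PER2 counts are near the shares over all genes (10.9% and 10.6%), and the list median was -0.06. Mpc1 and Mpc2 were not called there (-0.10 and -0.06).

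Of 14 genes known to respond with Pdk4 to fasting, fatty acids or glucocorticoids, 5 rose and 3 fell on the mean in the RORA knockout, and 1 was called positive and 4 negative in the PER2 set, with list medians of 0.13 and -0.14. The 3 that fell and the 1 called positive are near or below the shares over all genes (19.3% and 10.9%). The 4 of them called in both sets were Plin2 (0.14 and -0.21), Fabp3 (0.30 and -0.33), Klf15 (-0.09 and -0.18) and Fkbp5 (0.40 and 0.39), with the RORA value first. Foxo3 rose by 0.19 and Fbxo32 fell by 0.55 in the RORA knockout. Angptl4, a fatty acid-induced inhibitor of lipoprotein lipase, had a mean of -0.81 in the PER2 set (adjusted p = 1.28e-04). Of 7 regulators, 6 rose and 0 fell in the RORA knockout (18.9% and 19.3% of all genes; list median 0.13), among them Nr3c1 at 0.13, Ppard at 0.17, Esrra at 0.09 and Ppargc1b at 0.18, and Ppargc1a, at 0.12 and 0.22, was called in both sets. With limma on the 6 values, the PER2 calls of Gpt2, Pcx, Angptl4, Plin2, Fkbp5 and Pdp2 held, and those of Pdhx, Dlst, Bckdk, Ldhd, Slc16a3, Fabp3, Klf15 and Ppargc1a were lost, as were the RORA calls of Dbt, Klf15 and Ppargc1a.

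The course of Pdk4 over ZT was compared with that of other genes by Pearson's r of log2 fold change over the 6 ZT, among 2486 RORA and 456 PER2 genes called at 2 or more ZT with a size of at least 0.3. With 6 points and so many genes, high values of r are given as a description only. This r compares the shape of a course and not its level or sign, so a gene alike to Pdk4 need not be raised with it. In the RORA set the most alike were Rnf122 (0.98), Bcl6b (0.97), Tmem185a (0.96), 5430431A17Rik (0.95) and Xrra1 (0.95), and the least alike Wnt4 (-0.98), Man2a2 (-0.98) and Prss23 (-0.98). Of these, Rnf122, Bcl6b, Wnt4 and Prss23 had positive log2 fold changes at every ZT. Tmem185a, 5430431A17Rik, Xrra1 and Man2a2 were negative at every ZT, Xrra1 from -5.01 to -3.14. In the PER2 set the most alike were Angptl4 (0.96), Wls (0.88), Actc1 (0.88), Spint2 (0.83) and Il1r1 (0.79), and at the other end Gm10801 (-0.96), Gm10800 (-0.93) and Gm14412 (-0.92). Wls, Il1r1 and Gm14412 were positive at every ZT, Actc1, Gm10801 and Gm10800 negative at every ZT, and Angptl4 and Spint2 had both signs.

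Of the listed fatty acid response genes, Ucp3, a mitochondrial uncoupling protein of muscle, had a course like that of Pdk4 in both sets, with an r of 0.93 and 0.90. This gene was picked after its values were seen. The list of 14 did not move together. With the RORA value first, r with Pdk4 was -0.83 and -0.69 for Klf15, -0.91 and 0.13 for Fkbp5, and -0.10 and -0.77 for Foxo3. In the authors' deposited RORA tables Ucp3 stood at -0.02, 0.54, 1.14, 0.56, 0.05 and 0.30 from ZT0 to ZT20 and was called at ZT4, ZT8, ZT12 and ZT20. Its values in the authors' deposited PER2 tables were 0.80, -0.49, -0.68, -0.04, -0.22 and 0.13, and none of these was called. Angptl4 stood at 0.20, -1.45, -1.48, -0.61, -0.60 and -0.91 in the authors' deposited PER2 tables and was called at ZT4 and ZT8, the ZT of the lowest Pdk4 values. In the RORA set its r with Pdk4 was 0.44. Acot2, a mitochondrial acyl-CoA thioesterase, also picked after its values were seen, had an r with Pdk4 of 0.77 in the RORA and 0.93 in the PER2 set.

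**Figure D5:**
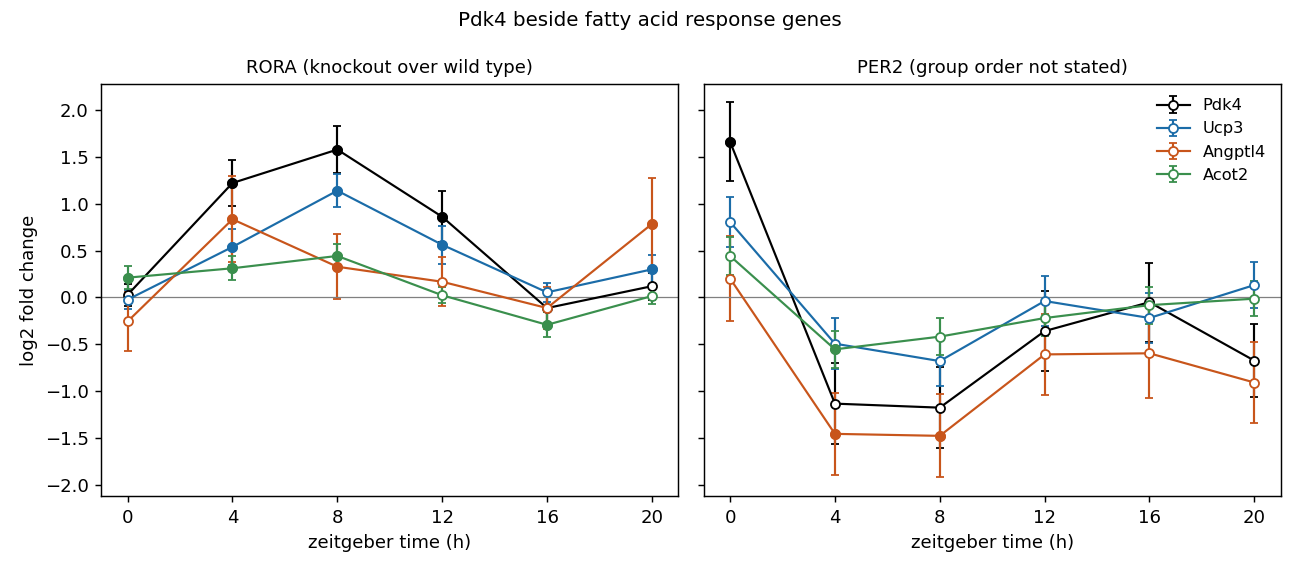
Log2 fold change of Pdk4, Ucp3, Angptl4 and Acot2 against ZT in hours in the RORA (left) and PER2 (right) tables, with bars of 1 error and filled points where the deposited adjusted p was under 0.05. Pdk4 and Ucp3 peak at ZT8 in the RORA set, at 1.58 and 1.14, and all 4 genes have their highest PER2 value at ZT0. Other genes of the list had a negative r with Pdk4 and are not shown.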

How the data were processed

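RNA was measured in 79 muscle libraries, which enter only through 12 tables of the authors' comparisons of MKO with CTRL. Depth per library is thus unknown. The submitters' processing notes name MultiQC, STAR, Trimmomatic, DESeq2, bcl2fastq 2.20.0.422 and R 4.1, and the builds mm9 and GRCm39, with no roles. Counter and annotation: not given in the sources used here. Per the file headers, each RORA table lists the mean normalized count (a signal level), the log2 fold change with its error, and raw and adjusted p-values, and the labels name a filter of 10 reads in 3 samples. Per the file headers, each PER2 table lists the log2 fold change, the log2 of the mean CPM, the score of a likelihood ratio test, and raw and adjusted p-values. To get an error for PER2, the absolute log2 fold change was divided by the square root of the authors' deposited score.

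Over ZT, RORA effects were averaged with inverse-variance weights, and PER2 effects were combined through Stouffer's sum of z values from the deposited p, both two-sided. The adjusted p of a mean thus rests on the errors or p at each ZT and does not measure the SD over ZT given beside it. Cochran's Q (5 degrees of freedom) tested change with ZT. Adjustment was by Benjamini-Hochberg over all genes of a set. The tests were run in Python 3.11.15 with SciPy 1.17.1, checked on simulated data, with limma 3.58.1 (R 4.3.3) as an alternative. Lengths are those of the longest transcript in GENCODE M21. The PER2 trend with length and GC content was fitted at each ZT over 11739 genes. The difference between the knockouts was not tested, since the PER2 group order is not stated.

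The genes, lists and promoter motifs were chosen with earlier results of these data known. Named were all 10 genes, in each list those called in both sets on the mean and the up to 4 per set with the smallest adjusted p of which the text gives those called, Pdhx, Pdp2, Mpc1, Mpc2 and Bckdk, and the genes most and least like Pdk4.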

Additional observations from a re-analysis of the deposited data

Results flagged for a closer look

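The effect of the RORA knockout differed between ZT by Cochran's Q for 7 of the 10 genes, with adjusted p of 1.23e-08 for Pdk4, 1.58e-08 for Pdha1, 1.21e-04 for Dlat, 0.00149 for Pdp1, 0.0197 for Pdk2, 0.0417 for Pdhb and 0.0449 for Pdpr. In the PER2 set it differed between ZT for Pdk4 alone among the 10 genes (adjusted p = 0.0272). Shrinkage of the RORA log2 fold changes need not be equal at each ZT. With the unshrunken z values of the deposited p in its place, 6 of the 10 RORA genes and 1 of the 10 PER2 genes were called, and the RORA call lost was that of Pdhb (adjusted p = 0.0875). The share of all genes called with these z values is not given here, so the counts show only which calls were kept.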

How the results depend on the processing

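No paired analysis was possible because the tables hold comparisons only, with no values per library, and for the same reason no replicate could be left out. Leaving out a ZT stood in for it. Of 10 genes, 9 were called on the RORA mean over ZT, and 7 to 9 under the alternatives, the lowest with limma. With limma, which uses the spread over ZT, the adjusted p was far larger than for the weighted mean. It was 1.96e-04 for Pdk2, 0.00155 for Pdhb, 0.00518 for Dlat and 0.00639 for Dld. It was 0.0122 for Pdk1, 0.0259 for Pdha1 and 0.0472 for Pdpr. The count of RORA genes whose effect changed with ZT went from 7 to 4 at an adjusted p under 0.01. In the PER2 set the count called on the mean went from 1 to 3 without ZT0 (Pdk2, Pdk4 and Dlat), to 2 with the length and GC trend removed (Pdk1 and Dlat), to 0 without ZT4 and ZT12 and to 0 with limma. The PER2 count whose effect changed with ZT went from 1 to 0 without ZT0, without ZT4, without ZT8 and at an adjusted p under 0.01. The share of all genes called under each alternative is not given here, so these counts show only which calls were kept or gained. With the trend removed the PER2 mean of Dld, not called, turned from -0.03 to 0.0297. The RORA change with ZT of Pdpr was lost without ZT0, ZT4 or ZT20, and that of Pdhb without ZT8, ZT16 or ZT20. Over the combinations of 1 of the 10 genes with 1 alternative, 113 of 119 RORA and 131 of 139 PER2 mean values kept their direction and side of the threshold. In the PER2 set only 1 of the 10 genes was called on the mean, so most of its values kept were values not called. Depth is unknown, so precision rests on the authors' errors, which for Pdk3 were as large as its values at most ZT.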
